A study of Mus musculus with 12 samples.

Results

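Aminoacyl-tRNA synthetases are the enzymes that join each amino acid to its tRNA, the step that supplies the ribosome with charged tRNA. One set works in the cytosol and another, encoded by separate nuclear genes, works in the mitochondrion, where a small set of respiratory chain proteins is made. Several cytosolic enzymes are held together with scaffold proteins in a multi-synthetase complex, and many cytosolic synthetase genes are known targets of ATF4, the transcription factor of the amino acid response.

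The synthetases were taken by name from the table of genes: a capital letter followed by "ars", with no ending or with the ending 1, 2, a or b, together with Eprs. The rule found 37 of the 39423 genes listed, 20 without the ending 2, treated as cytosolic, and 17 with it, treated as mitochondrial. The division follows the names only, since Gars and Kars are known to give both the cytosolic and the mitochondrial enzyme. Every one of the 37 genes passed the filter on low counts in each comparison, and the rule used no measured value. The synthetases were nonetheless chosen with earlier results of these data known, so their shares beside all genes are descriptions.

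3T3-L1 cells, a mouse preadipocyte line, were transfected with control siRNA (siCtrl) or with siRNA against PRMT1 (siPRMT1), a protein arginine methyltransferase, and were induced to become adipocytes with DMI, which stands for dexamethasone, 3-isobutyl-1-methylxanthine (a phosphodiesterase inhibitor) and insulin. Messenger RNA was sequenced at 24 h (day 1) and 72 h (day 3) of induction, with 3 libraries in each of the 4 conditions, so all cells compared had been transfected with an siRNA and received DMI. The sources used here do not name which PRMT1 siRNA was sequenced, and nothing in the labels says that the 3 libraries of a condition came from separate cultures, so p-values measure the spread between these libraries, which may be technical. The question was how loss of PRMT1 alters gene expression in the early and the later stage of adipogenesis.

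The 12 libraries held 15116462 to 42357137 counts on genes. Prmt1 itself had 82.9, 83.4 and 91.3 FPKM (fragments scaled by transcript length and library total) in siCtrl and 43.8, 38.6 and 41.4 FPKM in siPRMT1 at 24 h, and 111, 120 and 140 against 62.0, 71.7 and 68.5 FPKM at 72 h, so the knockdown groups lay below their controls at both times. Replicate 3 of siCtrl at 24 h stood apart from its group: its chi-square per gene against the other 2 libraries was 50.6 and 30.8, against 4.14 to 15.8 for the 10 other pairs of replicates. Of 6 adipocyte markers, the summed level was 144 to 149 FPKM in siCtrl and 109 to 123 FPKM in siPRMT1 at 24 h, and 2068 to 2239 and 1627 to 1843 FPKM at 72 h. At 24 h Adipoq was at 0.03 to 0.46 FPKM, and the 6 preadipocyte and fibroblast markers summed to 904 to 1025 FPKM, against 460 to 621 FPKM at 72 h. The 4 macrophage markers summed to at most 2.40 FPKM, the 3 endothelial markers to at most 0.87 FPKM and the 3 epithelial markers to at most 6.54 FPKM, the last being nearly all Krt14 at 72 h.

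Levels were compared between genes in FPKM, which is per length. Gars, the glycyl-tRNA synthetase, was the most abundant with a mean of 192 FPKM over the 12 libraries, and Vars2, the mitochondrial valyl-tRNA synthetase, the least with 0.298 FPKM and 15 to 45 counts in a library. The cytosolic genes were the more abundant set: their median level was 55.2 FPKM in siCtrl and 62.0 FPKM in siPRMT1 at 24 h, and 63.5 and 61.9 FPKM at 72 h. For the mitochondrial genes the medians were 6.67, 8.48, 11.3 and 10.2 FPKM in the same order. Within the cytosolic set Vars, at 2.75 FPKM, and Yars and Farsb, at 11.9 and 10.5 FPKM, stood lowest, and part of the counts of these 3 genes was listed under copies on other scaffolds. The same held for Vars2, whose copy Vars2_1 had 827 counts over the 12 libraries beside 379 under its own name. Iars2 (37.8 FPKM), Lars2 (31.9 FPKM) and Yars2 (25.4 FPKM) led the mitochondrial set.

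**Figure D1:**
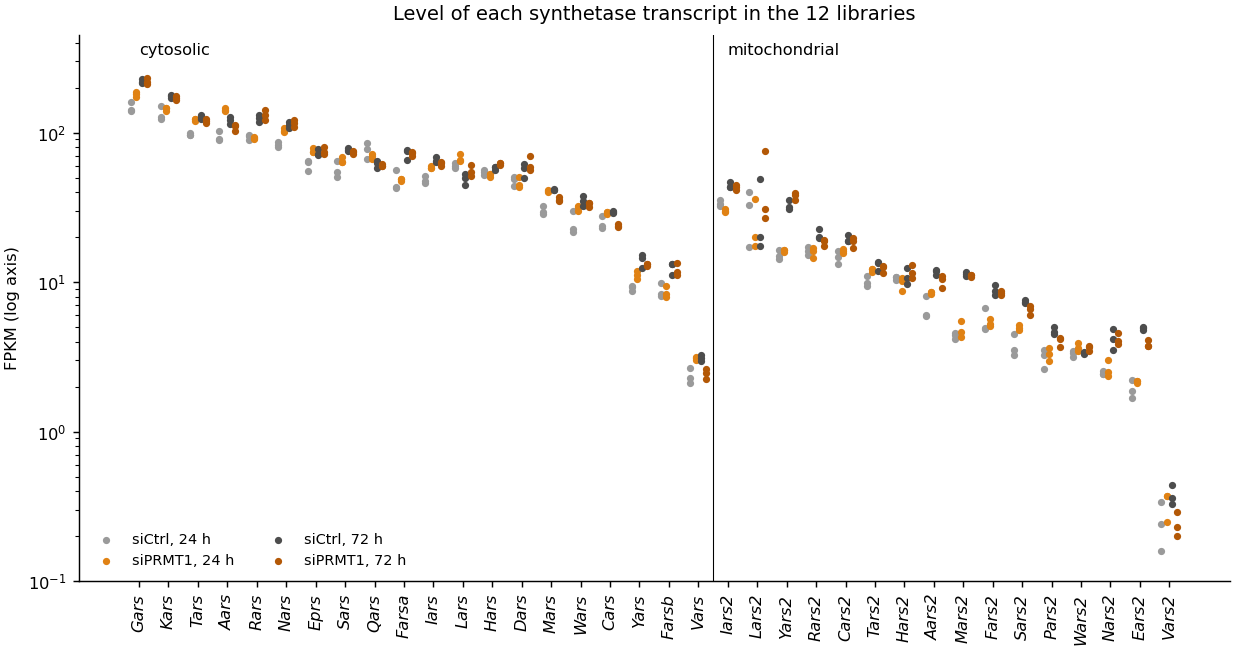
FPKM (log axis) of synthetase genes in each of the 12 libraries, cytosolic genes on the left and mitochondrial genes on the right, ordered by mean level and colored by condition; each point is 1 library. Gars, at 140 to 233 FPKM, is the most abundant and Vars2, at 0.16 to 0.44 FPKM, the least, and Lars2 is the gene whose 3 libraries of a condition lie furthest apart.

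Summed over the 20 cytosolic genes, the level was 1162, 1168 and 1268 FPKM in siCtrl and 1375, 1407 and 1389 FPKM in siPRMT1 at 24 h. At 72 h it was 1536, 1511 and 1541 FPKM in siCtrl and 1543, 1509 and 1473 FPKM in siPRMT1. In FPKM, which carries no TMM scaling, the siPRMT1 libraries thus lay above all siCtrl libraries at 24 h, and the groups overlapped at 72 h. The TMM normalization factors of the 24 h libraries were 0.9528, 0.9636 and 0.9229 in siCtrl and 1, 1.018 and 1.02 in siPRMT1. With the sums divided by these factors, the groups would overlap at 24 h as well. For the mitochondrial genes without Lars2, whose spread is given at the end, the sums at 24 h were 144, 142 and 157 FPKM in siCtrl and 147, 150 and 149 FPKM in siPRMT1, and at 72 h 208, 203 and 220 against 205, 207 and 200 FPKM. In this set the siRNA groups overlapped at both times, and every library at 72 h was above every library at 24 h. In bulk RNA a change in the share of cells of 1 kind and a change in RNA per cell cannot be told apart.

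At 24 h, knockdown of PRMT1 raised 4 cytosolic synthetase transcripts, those for alanine, methionine, threonine and asparagine. A gene passed the test at an adjusted p under 0.05 (edgeR quasi-likelihood test, Benjamini-Hochberg adjustment over the 13689 genes tested), and was called when its log2 fold change was also over 0.5 in size. The 4 genes that rose and the 1 that fell, out of 37, stand beside 3.22% of all genes tested that passed as higher and 4.38% that passed as lower. Only Aars was called, and the shares called over all genes were 1.95% higher and 1.61% lower. The median log2 fold change was 0.21 over the 20 cytosolic genes, 14 of them positive, 0.05 over the 17 mitochondrial genes, 11 of them positive, and 0.01 over all genes tested.

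Aars, the alanyl-tRNA synthetase (chromosome 8, 111027827 to 111055569, plus strand, mm10), had 91.1, 89.2 and 103 FPKM in siCtrl and 141, 139 and 147 FPKM in siPRMT1 at 24 h. The groups did not overlap, and the log2 fold change was 0.54 with a standard error of 0.0657 (adjusted p = 0.00434, edgeR quasi-likelihood test). Aars passed the adjusted p with each of the 6 libraries left out in turn, but its log2 fold change was 0.47 after correction for GC content and length, under the threshold for a call. Mars, the methionyl-tRNA synthetase (chromosome 10, 127296221 to 127311786, minus strand), had 28.7, 29.4 and 32.2 FPKM in siCtrl and 41.2, 40.6 and 40.1 FPKM in siPRMT1. Its log2 fold change was 0.38 (SE 0.066, adjusted p = 0.0154, edgeR) with no overlap between the groups. The exons of Mars share 71 bases with Ddit3 on the other strand, and since the strand setting of the counting is not given in the sources used here, reads of the pair in that stretch cannot be told apart. Ddit3 held 13040 counts over the 12 libraries against 46875 for Mars, and its own log2 fold change at 24 h was 0.69.

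Tars, the threonyl-tRNA synthetase (chromosome 15, 11383663 to 11399658, minus strand), stood at 95.9, 95.6 and 99.4 FPKM in siCtrl and at 123, 124 and 119 FPKM in siPRMT1. Its log2 fold change, from counts with TMM scaling, was 0.28 (SE 0.0565, adjusted p = 0.0245, edgeR). Nars, the asparaginyl-tRNA synthetase, stood at 85.8, 82.8 and 80.5 FPKM and at 102, 107 and 101 FPKM. The log2 fold change of Nars, from the same scaled counts, was 0.27 (SE 0.0622, adjusted p = 0.0382, edgeR). In both genes the groups lay apart. Nars did not pass without the filter on low counts, with at least 10 counts in every library, with the replicate block or with copies on other scaffolds summed (adjusted p = 0.0508 to 0.0521, edgeR). Gars had 140, 141 and 159 FPKM in siCtrl and 174, 188 and 180 FPKM in siPRMT1, groups that did not overlap, yet its adjusted p was 0.0564 (log2 fold change 0.25, SE 0.0663, edgeR).

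The count at 24 h rested on the libraries used. With siCtrl replicate 3 left out, 16 synthetases passed as higher and 2 as lower, whereas with any other of the 6 libraries left out Aars was the 1 synthetase that passed. Over all genes tested, the 267 called higher and 220 called lower became 504 and 369 without siCtrl replicate 3.

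**Figure D2:**
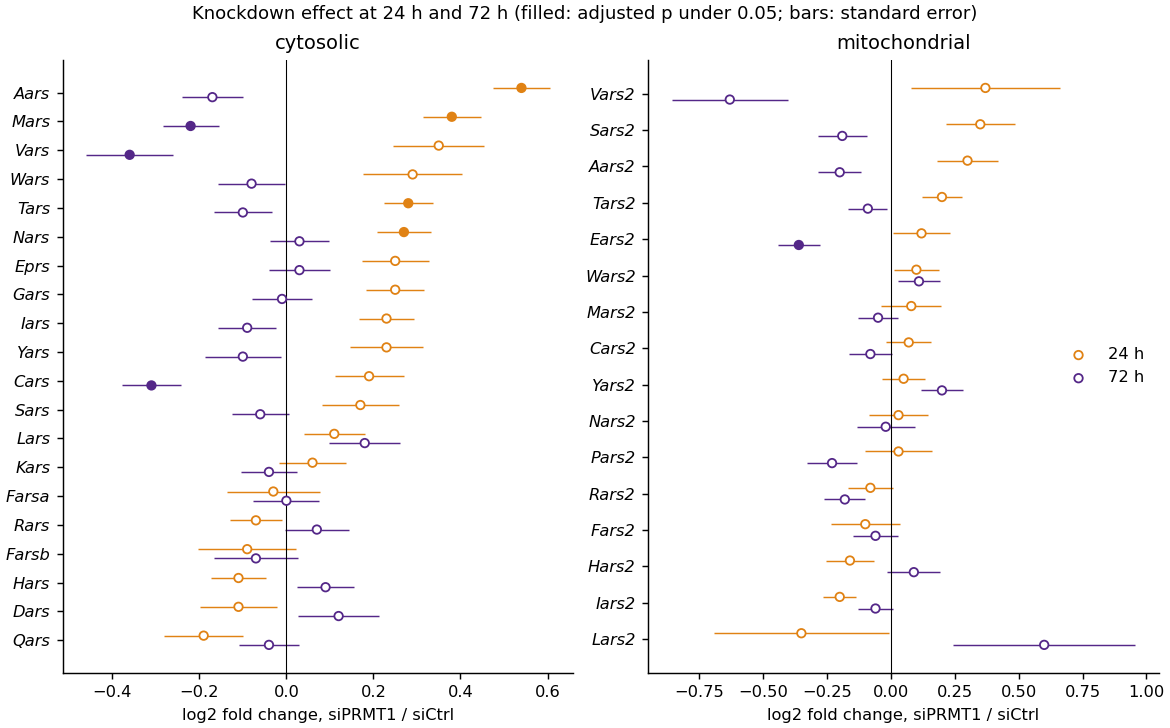
Log2 fold change of siPRMT1 over siCtrl for synthetases at 24 h (orange) and 72 h (purple), with its standard error as a bar and a filled point where the adjusted p was under 0.05; cytosolic genes are in the left panel and mitochondrial genes in the right. At 24 h 14 of the 20 cytosolic genes lie right of 0, with Aars furthest at 0.54, and at 72 h 14 of the 20 lie left of 0.

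At 72 h no synthetase rose with knockdown and 5 fell, among them those for valine, cysteine and methionine in the cytosol and that for glutamate in the mitochondrion. Over all 14039 genes tested, 7.54% passed as higher and 8.94% as lower. None was called with edgeR, which called 2.84% of all genes higher and 3.8% lower, nor with DESeq2. An unadjusted p under 0.05 in edgeR was reached by 12 of the 37, a share near that of all genes (4388 of 14039). The median log2 fold change was -0.05 for the cytosolic and -0.08 for the mitochondrial genes, beside 0.01 over all genes tested.

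Ears2, the mitochondrial glutamyl-tRNA synthetase (chromosome 7, 122034162 to 122067086, minus strand), had 4.81, 4.98 and 4.93 FPKM in siCtrl and 3.71, 3.73 and 4.09 FPKM in siPRMT1 at 72 h, a log2 fold change of -0.36 (SE 0.0824, adjusted p = 0.00825, edgeR). Cars, the cysteinyl-tRNA synthetase (chromosome 7, 143557230 to 143600090, minus strand), had 29.8, 29.3 and 29.0 FPKM against 24.3, 23.3 and 23.9 FPKM, a log2 fold change of -0.31 (SE 0.0669, adjusted p = 0.00536, edgeR). In both genes all siPRMT1 libraries were below all siCtrl libraries, and with each library left out in turn Cars passed in all 6 fits and Ears2 in 5 of 6, not without siPRMT1 72 h replicate 2 (adjusted p = 0.0557, edgeR). Vars, the valyl-tRNA synthetase (chromosome 17, 35000907 to 35016329, plus strand), had 3.13, 3.26 and 2.97 FPKM in siCtrl and 2.24, 2.45 and 2.63 FPKM in siPRMT1 (log2 fold change -0.36, SE 0.1, adjusted p = 0.0245, edgeR). For Mars the values were 41.1, 41.3 and 42.1 FPKM against 35.0, 36.9 and 35.6 FPKM (log2 fold change -0.22, SE 0.0642, adjusted p = 0.0296, edgeR). Mars was thus higher with knockdown at 24 h and lower at 72 h, with the groups apart each time. The falls at 72 h were less stable in these 2 genes, since with single libraries left out Vars passed in 3 of 6 fits (not without siCtrl 72 h replicate 2 or siPRMT1 72 h replicate 1 or 2) and Mars in 1 of 6 (without siCtrl 72 h replicate 1), and Mars did not pass without the filter on low counts (adjusted p = 0.06, edgeR).

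Aars, at 121, 128 and 114 FPKM in siCtrl and 103, 112 and 110 FPKM in siPRMT1, lay lower with knockdown at 72 h but did not pass (log2 fold change -0.17, adjusted p = 0.12, edgeR). With each of the 6 libraries left out in turn, 1 to 4 synthetases passed as lower at 72 h, 1 being without siPRMT1 replicate 2.

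The values of the valyl-tRNA synthetases depended on where their reads were counted. The table lists genes on unplaced and alternate scaffolds apart, under the same name with a number added, and Vars had 3775 counts over the 12 libraries under its own name and 1836 under Vars_3, while Vars2 had 379 counts and its copy Vars2_1 had 827. With the copies summed, an alternative added after seeing the data, Vars rose at 24 h (log2 fold change 0.45, SE 0.0932, adjusted p = 0.0263, edgeR) and fell at 72 h (-0.38, adjusted p = 0.0132, edgeR). Under its own name alone Vars had 2.27, 2.12 and 2.66 FPKM in siCtrl and 3.12, 3.00 and 3.15 FPKM in siPRMT1 at 24 h and did not pass (log2 fold change 0.35, adjusted p = 0.0845, edgeR). Vars2 summed with its copies fell at 72 h, with a log2 fold change of -0.57 (SE 0.149, adjusted p = 0.015, edgeR), against -0.63 (SE 0.228, adjusted p = 0.0713, edgeR) on its own name alone.

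**Figure D3:**
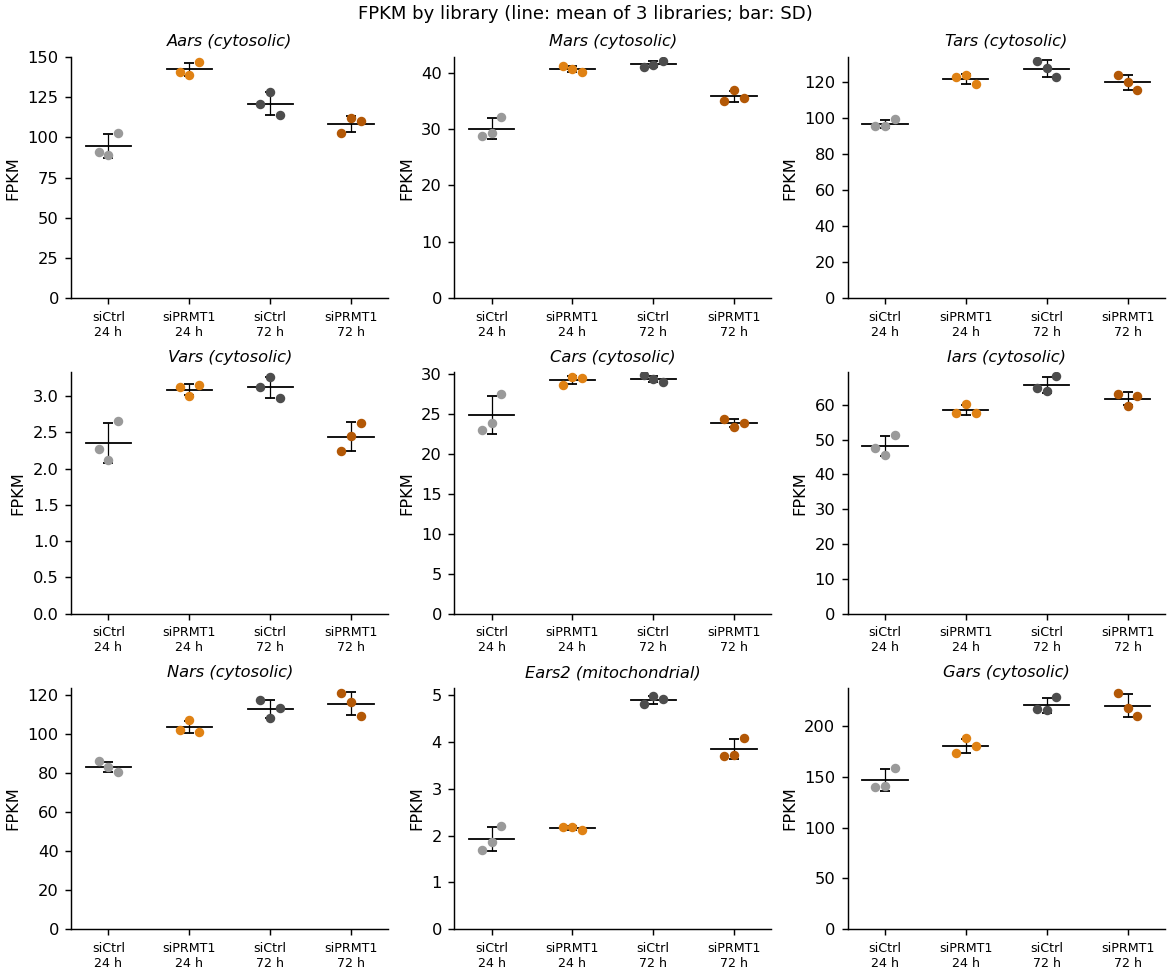
FPKM of 9 synthetases in each library, in 4 conditions from left to right (siCtrl 24 h, siPRMT1 24 h, siCtrl 72 h, siPRMT1 72 h); points are libraries, the line is the mean of 3 libraries and the bar the SD, and each axis starts at 0. Aars, Mars, Tars, Vars, Cars, Iars and Ears2 are higher with knockdown at 24 h and lower at 72 h in their means. Nars and Gars are higher at 24 h and overlap their controls at 72 h.

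The knockdown effect differed between the times for 7 synthetases, in each case with a lower value at 72 h than at 24 h. The interaction of siRNA and time was tested over all 12 libraries, and 7 of 37 synthetases passed as lower and none as higher, beside 4.63% lower and 7.69% higher among the 14612 genes tested. With DESeq2 10 passed as lower and none as higher. An unadjusted p under 0.05 in edgeR was reached by 17 of the 37, beside 3983 of all 14612 genes. The 3 called were Aars (log2 difference of the effects -0.68, SE 0.0995, adjusted p = 5.8e-04), Vars (-0.68, SE 0.146, adjusted p = 0.00763) and Mars (-0.58, SE 0.089, adjusted p = 8.6e-04, all edgeR), beside 3.47% of all genes called lower and 4.77% called higher. These 3 were past both thresholds with each of the 12 libraries left out in turn.

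Of the other 4, Cars had an interaction of -0.48 (SE 0.105, adjusted p = 0.00883, edgeR) and Tars of -0.35 (SE 0.0814, adjusted p = 0.0111, edgeR). Iars, the isoleucyl-tRNA synthetase, had 47.5, 45.7 and 51.4 FPKM in siCtrl and 57.7, 60.2 and 57.7 FPKM in siPRMT1 at 24 h, and 64.8, 63.9 and 68.2 against 63.2, 59.7 and 62.6 FPKM at 72 h. Its groups lay apart at both times, though neither knockdown effect passed, and the interaction was -0.30 (SE 0.0904, adjusted p = 0.0425, edgeR). Ears2 was the 1 mitochondrial gene, with 1.69, 1.87 and 2.21 FPKM in siCtrl and 2.18, 2.18 and 2.11 FPKM in siPRMT1 at 24 h and an interaction of -0.46 (SE 0.14, adjusted p = 0.043, edgeR). With single libraries left out, Iars did not pass in 11 of 12 fits and Ears2 in 10 of 12. Sars2 and Aars2, the mitochondrial seryl- and alanyl-tRNA synthetases, did not pass, with interactions of -0.53 and -0.48 and adjusted p of 0.0515 and 0.0589 (edgeR).

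The medians of the interaction were -0.21 for the cytosolic and -0.08 for the mitochondrial genes, and 0.02 over all genes tested. Higher with knockdown at 24 h and lower at 72 h, by the sign of the log2 fold change alone, were 20 of the 37 synthetases (54.1%), 11 cytosolic and 9 mitochondrial, beside 3396 of the 13225 genes tested at both times (25.7%). These comparisons use different libraries. The opposite pattern was seen in 5 synthetases, 5 were higher at both times and 7 lower at both.

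Between 24 h and 72 h of DMI most synthetases called higher were mitochondrial. In siCtrl cells 26 synthetases rose and 3 fell, beside 30.2% and 28.7% of the 13829 genes tested. Those that rose were 14 of the 20 cytosolic and 12 of the 17 mitochondrial genes, so the sets differed in the calls and not in this share. In all, 11 were called higher and none lower, beside 22.7% and 20.4%. The 8 mitochondrial genes called were Mars2 (1.29), Ears2 (1.29), Yars2 (1.03), Sars2 (0.91), Aars2 (0.74), Nars2 (0.69), Fars2 (0.61) and Pars2 (0.51), each given as a log2 fold change of 72 h over 24 h. The 3 cytosolic genes called were Yars (0.55), Farsa (0.54) and Gars (0.52). The median was 0.51 for the mitochondrial and 0.35 for the cytosolic genes, and 0 over all genes tested. The gap between these medians was not stable: they were 0.42 and 0.39 with library weights, 0.39 and 0.38 without siCtrl 24 h replicate 3, 0.38 and 0.37 with copies on other scaffolds summed, and 0.31 and 0.24 after correction for GC content and length. After correction for GC content and length 6 synthetases were called in siCtrl, beside 2687 of all 13829 genes called higher and 3245 called lower. The adipocyte markers rose over the same interval by the amounts given above, and their part in these changes was not tested.

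Mars2, the mitochondrial methionyl-tRNA synthetase, went from 4.55, 4.45 and 4.19 FPKM at 24 h to 11.7, 10.9 and 11.4 FPKM at 72 h in siCtrl (log2 fold change 1.29, SE 0.0976, adjusted p = 2.4e-06, edgeR). Yars2, the mitochondrial tyrosyl-tRNA synthetase, went from 14.9, 14.2 and 16.5 to 30.7, 31.7 and 35.5 FPKM (log2 fold change 1.03, SE 0.106, adjusted p = 2.0e-05, edgeR). In both genes the libraries of the 2 times lay far apart. Sars2 went from 3.53, 3.25 and 4.53 to 7.37, 7.63 and 7.28 FPKM (SE 0.144, adjusted p = 3.7e-04, edgeR) and Aars2 from 5.96, 5.99 and 8.06 to 11.2, 12.1 and 11.9 FPKM (SE 0.132, adjusted p = 8.0e-04, edgeR). Among those that fell were Qars, the glutaminyl-tRNA synthetase (-0.38, adjusted p = 0.00926), and Lars, the leucyl-tRNA synthetase (-0.37, adjusted p = 0.00298, both edgeR), neither of them called.

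In siPRMT1 cells 22 synthetases rose and 7 fell between the times, beside 32.2% and 31.2% of the 14224 genes tested. Those that rose were 9 of the 20 cytosolic and 13 of the 17 mitochondrial genes. In all, 9 were called higher and none lower, beside 19% and 17.4%. Yars2 (1.19) and Mars2 (1.17) took the largest steps, from 15.9, 16.5 and 16.5 to 38.0, 39.3 and 35.6 FPKM and from 4.67, 5.49 and 4.28 to 11.1, 10.8 and 11.1 FPKM. Ears2 rose from 2.18, 2.18 and 2.11 to 3.71, 3.73 and 4.09 FPKM, a log2 fold change of 0.82 against 1.29 in siCtrl, the difference tested by the interaction above. Sars2 went from 5.2, 4.79 and 4.92 to 5.99, 6.61 and 6.91 FPKM and Aars2 from 8.36, 8.55 and 8.52 to 9.15, 10.5 and 11.0 FPKM, and both passed without being called (log2 fold changes 0.38 and 0.26). The median was 0.27 for the mitochondrial and 0.11 for the cytosolic genes, and 0.17 and 0.03 after correction for GC content and length.

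Aars, Mars, Vars and Cars passed as lower over time in siPRMT1 and had a positive change in siCtrl. By sign alone, Vars2 (0.53 in siCtrl and -0.47 in siPRMT1), Tars (0.33 and -0.04) and Eprs (0.20 and -0.02) also went up in siCtrl and down in siPRMT1. Lars2 (-0.13 and 0.84) and Hars2 (-0.03 and 0.24) went the other way. Aars was 0.29 in siCtrl and -0.41 in siPRMT1 (adjusted p = 0.0151 and 1.5e-05, edgeR), and Mars was 0.39 and -0.20 (adjusted p = 0.00195 and 0.00594, edgeR). Vars was 0.34 and -0.35 (adjusted p = 0.039 and 0.00328, edgeR), and Cars 0.18 and -0.31 (adjusted p = 0.129 and 3.6e-04, edgeR). Aars, Mars and Vars thus rose with time in control cells and fell in knockdown cells, and Cars fell in knockdown cells and did not pass in control cells. The siCtrl values at 24 h enter both the knockdown effect at 24 h and the time course in siCtrl, so these comparisons share libraries and are not separate evidence.

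**Figure D4:**
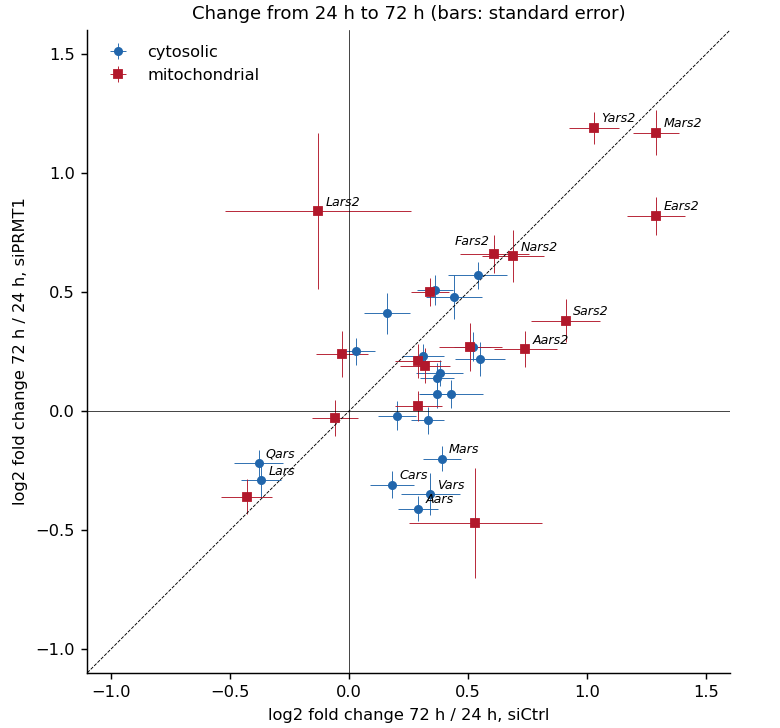
Log2 fold change of 72 h over 24 h for each synthetase, siCtrl on the horizontal and siPRMT1 on the vertical axis, with standard errors as bars and the dashed line where both are equal; circles are cytosolic and squares mitochondrial genes. Mars2, Yars2 and Ears2 lie furthest to the upper right, at 0.82 to 1.29 on both axes. Aars, Mars, Vars, Cars, Vars2, Tars and Eprs lie right of 0 and below 0.

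Lars2, the mitochondrial leucyl-tRNA synthetase, varied more between libraries of a condition than between conditions. It had 40.1, 17.1 and 33.0 FPKM in siCtrl and 19.9, 36.0 and 17.3 FPKM in siPRMT1 at 24 h, and 17.5, 20 and 49.1 against 26.7, 30.7 and 75.1 FPKM at 72 h. The groups overlapped in every comparison. It was called higher over time in siPRMT1 (log2 fold change 0.84, SE 0.329, adjusted p = 0.0389, edgeR), but not with DESeq2 (adjusted p = 0.199). With siPRMT1 24 h replicate 1 or 3 or siPRMT1 72 h replicate 3 left out, the log2 fold change was 0.71, 0.63 and 0.21 and did not pass.

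The promoters of the synthetases were searched for the letters of 3 known binding sites. RefSeq windows from 250 bases before to 50 bases after the start (GRCm38.p6) were found for 27 of the 37 genes, 13 cytosolic and 14 mitochondrial. The core of the C/EBP-ATF response element, TGATGNAA on either strand, was in 5 of these 27 genes (18.5%), Aars, Gars, Iars, Tars and Yars, all cytosolic, and in 4.51% of all genes with a window. The E-box core CACGTG was in Aars, Ears2, Farsb, Iars and Tars (18.5%, against 8.09% of all genes), and the NRF1 core GCGCATGC in Rars2, Vars2 and Wars2 (11.1%, against 3.05%). No match of 1 motif overlapped a match of another. A stretch with the C/EBP-ATF core is shown for each gene on its own strand with the match in capitals, because their 5 genes can be set beside the values at 24 h.
Aars, chr8:111033840-111033869, plus strand: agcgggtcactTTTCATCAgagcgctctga
Gars, chr6:55037931-55038000, plus strand: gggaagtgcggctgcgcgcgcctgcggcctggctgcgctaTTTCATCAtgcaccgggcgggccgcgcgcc
Iars, chr13:49682126-49682155, plus strand: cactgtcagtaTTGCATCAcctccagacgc
Tars, chr15:11399659-11399713, minus strand: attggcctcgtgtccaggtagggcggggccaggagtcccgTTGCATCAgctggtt
Yars, chr4:129189895-129189924, plus strand: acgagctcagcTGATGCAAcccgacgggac

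The matches shown lie 30 bases before the RefSeq start in Gars, 15 bases before it in Tars and just after it in Aars, Iars and Yars. In Aars and Yars that start is inside the gene as listed in the count table, and so not at the gene's first base. The log2 fold changes of these genes with knockdown at 24 h were 0.54 (Aars), 0.28 (Tars), 0.25 (Gars), 0.23 (Iars) and 0.23 (Yars), all positive, and Aars and Tars passed. At 24 h 14 of the 20 cytosolic genes and 51.7% of all genes tested were positive. Among cytosolic genes with a window and no match, Mars (0.38), Eprs (0.25), Sars (0.17) and Kars (0.06) were positive. Farsb, Dars, Farsa and Qars, also without a match, were negative. Nars, which rose, had no window in the table. A link between a match and the change at 24 h was not tested. A match of letters is a description and does not show that a factor binds there.

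The genes around the synthetases were counted by lists. In the list of amino acid response genes outside charging, which holds amino acid transporters, serine and asparagine synthesis and stress genes, 24 of 27 genes were tested, and at 24 h 20 rose and none fell with knockdown, 13 of them called, with a median log2 fold change of 0.57. Trib3, a pseudokinase induced by ATF4 (1.57, adjusted p = 9.8e-04), the glycine transporter Slc6a9 (1.41, adjusted p = 9.8e-04), Slc7a5, the large neutral amino acid transporter (0.95, adjusted p = 0.002), and Chac1 (1.24, adjusted p = 0.00225, all edgeR), which degrades glutathione, had the smallest p. At 72 h 14 fell and 1 rose, with Trib3 (-0.96), Ddit4 (-0.66), Chac1 (-0.65) and Nupr1 (-0.83) called. In the interaction 22 of the 24 passed as lower, 18 of them called, with a median of -0.90. Over all genes tested, 3.22% passed as higher at 24 h, 8.94% as lower at 72 h and 4.63% as lower in the interaction. The shares called in these directions were 1.95%, 3.8% and 3.47%. The list of amino acid response genes was written with results on these libraries known, so its direction is not independent evidence. Over all 37 synthetases the medians were 0.10 at 24 h and -0.06 at 72 h, of the same sign as those of the list, which were 0.57 and -0.26. These signs were not particular to them: medians were 0.03 and -0.09 for mitochondrial ribosomal proteins, 0.11 and -0.02 for indirect charging routes and 0.09 and -0.01 for scaffold genes. The lists on charging quality control, elongation factors and sensing had the reverse signs.

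Asns, the asparagine synthetase, had 132, 124 and 130 FPKM in siCtrl and 161, 171 and 169 FPKM in siPRMT1 at 24 h (log2 fold change 0.33, adjusted p = 0.0158, edgeR), and its interaction was -0.46 (adjusted p = 0.00331, edgeR). Atf4 had 189, 188 and 217 FPKM against 229, 237 and 237 FPKM at 24 h, and 194, 191 and 202 against 189, 175 and 176 FPKM at 72 h. Neither knockdown effect on Atf4 passed (log2 fold changes 0.20 and -0.13, adjusted p = 0.115 and 0.219, edgeR), and the interaction was -0.30 (adjusted p = 0.0558, edgeR). Of the 5 genes of the list on sensing of uncharged tRNA and the start of translation, Impact, an inhibitor of the GCN2 kinase, was the 1 called, in the interaction (0.67, adjusted p = 0.00915, edgeR).

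**Figure D5:**
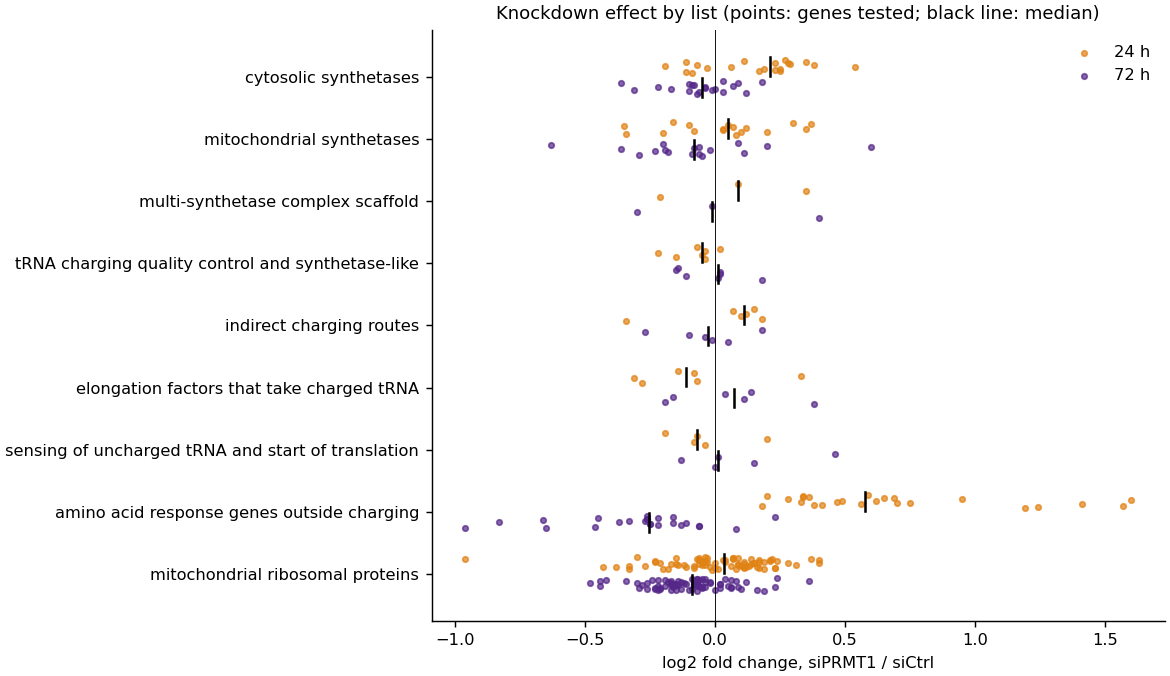
Log2 fold change of siPRMT1 over siCtrl at 24 h (orange) and 72 h (purple) for the genes of each list; points are genes tested and the black line is the median. The amino acid response genes outside charging lie furthest from 0, with medians of 0.57 and -0.26, and the cytosolic synthetases have medians of 0.21 and -0.05.

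Of the 3 scaffold genes of the multi-synthetase complex, none passed at 24 h. At 72 h Aimp1 rose (0.40, adjusted p = 0.0143) and Aimp2 fell (-0.30, adjusted p = 0.0114), and in the interaction both were called, at 0.63 (adjusted p = 0.0109) and -0.63 (adjusted p = 0.0065, all edgeR). Over time in siCtrl, Aimp2 (1.13) and Eef1e1 (0.89) were called higher, whereas Aimp1 fell (-0.36). The scaffold genes therefore did not move as 1 group. Among the 7 genes of the list on tRNA charging quality control, no gene passed with knockdown at either time or in the interaction, and Tarsl2, a second threonyl-tRNA synthetase, was called higher over time in siCtrl (0.88) and in siPRMT1 (0.82).

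Some other mitochondrial genes of the pathway were called higher over time, beside 22.7% of all genes tested in siCtrl and 19% in siPRMT1. In the list of indirect charging routes, which make mitochondrial glutaminyl-tRNA, formylmethionyl-tRNA and selenocysteyl-tRNA, Qrsl1 was called in siCtrl (1.06) and siPRMT1 (1.10) and Gatb in siPRMT1 (0.63), out of 6. Of the 6 elongation factors, the mitochondrial Tufm (1.0 and 0.90) and Tsfm (1.09 and 0.60) were called higher in siCtrl and siPRMT1. The cytosolic Eef1b2 was called lower in siCtrl (-0.64), and its interaction was 0.68 (adjusted p = 0.00161, edgeR). At 24 h Eef1a1 (-0.31, adjusted p = 0.0251, edgeR) and Eef1b2 (-0.28, adjusted p = 0.0241, edgeR) fell with knockdown, which is the other direction than the 4 cytosolic synthetases.

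Of 76 mitochondrial ribosomal protein genes tested, 48 were called higher and 2 lower over time in siCtrl, and 35 higher and none lower in siPRMT1. Over all genes tested, 22.7% were called higher and 20.4% lower in siCtrl, and 19% and 17.4% in siPRMT1. The smallest p were those of Mrpl12 (1.73 and 1.31) and Mrps2 (1.4 and 1.01) in both kinds of cells. With knockdown at 24 h 1 of the 76 was called, Mrps6 (-0.96, adjusted p = 0.00302, edgeR), and at 72 h none with edgeR. At 72 h 23 of the 76 had an unadjusted p under 0.05 (edgeR), a share near that of all genes (4388 of 14039). The median knockdown effect on these genes was 0.03 at 24 h and -0.09 at 72 h, next to 0.05 and -0.08 for the mitochondrial synthetases.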

How the data were processed

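Reads were trimmed by the authors with cutadapt 1.11 and aligned with HISAT2 2.1.0, and RSEM 1.2.6 is also listed in the submitters' processing notes. The deposited counts are whole numbers per RefSeq gene (mm10), without normalization. The authors also deposited FPKM, which recomputation from counts, length and totals matched to within 0.005. The counter, its strand setting and its treatment of reads with several matches are not given in the sources used here. All 12 libraries, 3 per condition and of 15116462 to 42357137 counts, were used, and a count of 0 would allow 3 counts, covering counting error only.

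Counts were tested across all genes with edgeR 4.0.16 (quasi-likelihood test, TMM, filterByExpr, Benjamini-Hochberg adjustment, R 4.3.3). A call needed an adjusted p below 0.05 with a log2 fold change beyond 0.5 in either direction. Standard errors were obtained from the F statistic, as the size of the log2 fold change over its root. FPKM served for levels only. Library values are given for synthetases among the 12 with the smallest adjusted p over the knockdown comparisons and the interaction, for Prmt1, Atf4 and Asns, and, chosen after their values were seen, for Lars2, Mars2 and Yars2. In the other lists up to 4 called genes were named by smallest p, and Aimp1 at 72 h, Aimp1 over time, Eef1a1 and Eef1b2 at 24 h were named after their values were seen. The table had no gene named Gcn1, which left 5 of 6 genes in the sensing list. One synthetase, counted in all totals, and 1 promoter match are not reported here. The synthetases and the lists were chosen with earlier results of these data known.

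Alternatives were DESeq2 1.42.0, RLE normalization, no filter, a minimum of 10 counts per library, a block on the replicate number, all 12 libraries in 1 model, limma 3.58.1 voom with library weights, GC content and length offsets (6-df splines, with a prior count of 3) with and without the block, and each library left out. Summing copies on other scaffolds was added after seeing the data. The fits were tested on simulated data.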

Additional observations from a re-analysis of the deposited data

Results flagged for a closer look

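The difference of the knockdown effect between 72 h and 24 h passed the interaction test for 7 synthetases. On the log2 scale it was -0.68 for Aars, -0.58 for Mars, -0.68 for Vars, -0.48 for Cars, -0.35 for Tars, -0.30 for Iars and -0.46 for Ears2. The interaction of Aars, Mars, Vars, Cars and Tars passed the adjusted p with each of the 12 libraries left out in turn, and those of Iars and Ears2 in 1 and 2 of the 12 fits (edgeR).

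Counts were also listed under copies of synthetase names on other scaffolds, which entered no comparison under the gene's own name. Over the 12 libraries these were 13277 counts for Farsb_1, more than the 7914 of Farsb, 4456 for Yars_1 beside 9984 of Yars, 1836 for Vars_3 and 33 for Vars_1 beside 3775 of Vars, and 827 for Vars2_1, more than the 379 of Vars2. With the copies summed, the interaction of Vars was -0.82 (adjusted p = 0.00218, edgeR) and that of Vars2 -0.85 (adjusted p = 0.0199, edgeR), whereas Vars2 alone had -0.99 (adjusted p = 0.0963, edgeR).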

How the results depend on the processing

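Recomputed gene by gene were the synthetases past the adjusted p with knockdown or in the interaction and those called over time, and none of these turned its direction under any alternative. At 24 h, where 4 passed as higher, 1 as lower and 1 was called, library weights gave 16, 3 and 2, GC content and length offsets 9, 2 and 0, these offsets with the block 8, 1 and 0, and 1 model of all 12 libraries 2 lower. Without single libraries 1 to 16 passed as higher and 0 to 2 as lower, the highest counts being those without siCtrl replicate 3. Over all genes the 267 called higher and 220 lower at 24 h became 574 and 399 with library weights and ran from 61 to 504 higher and 62 to 369 lower without single libraries. At 72 h, where none passed as higher and none was called, no filter gave 1 and 1, the block 1 and 2, the offsets 1 higher, the offsets with the block 2 and 1, and summed copies 1 called. Without single libraries 0 to 1 passed as higher, 1 to 4 as lower and 0 to 1 were called. Over time in siCtrl, the 11 called became 6 with the offsets, with or without the block, and 7 to 12 without single libraries, 7 being without siCtrl 72 h replicate 2. Over all genes the 3141 called higher and 2828 lower in siCtrl became 2687 and 3245 with the offsets. Over time in siPRMT1, the 22 passing as higher became 13 with the offsets, with or without the block, and the 9 called became 5 with the offsets and the block. In the interaction, library weights gave 1 higher, 15 lower and 7 called, the offsets, with or without the block, 1 higher and 13 lower, no filter 1 higher and at least 10 counts 5 called. Without single libraries 5 to 14 passed as lower and 3 to 8 were called, the highest without siCtrl 24 h replicate 3. Over all genes the interaction's 697 called higher and 507 lower became 964 and 884 with library weights and 902 and 1005 without that library. The causes were not tested.

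Samples with the same replicate number did not deviate together in every comparison: correlations of their deviations from the group means ran from -0.172 to 0.23. Between the siRNA groups at 24 h they were -0.0367, 0.144 and 0.23 for replicates 1, 2 and 3. The highest with another number were 0.229, -0.0365 and 0.0532. Whether the numbers mark pairs is therefore not settled. The replicate block gave 3 higher at 24 h, without Nars, and 9 lower in the interaction. Genes with few counts were limited by depth. The 15 to 45 counts of Vars2 in a library were those under its own name, and more were listed under its copy Vars2_1.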
